A study of Mus musculus with 8 samples.

Results

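The expression of 10 transcription factors that specify and maintain the epithelial lineages of the mouse mammary gland was compared in total mammary cell suspensions between parous mice and virgin control mice of the same age. The luminal regulators were Gata3, Tfap2a, Tfap2c, Runx1, Grhl2 and Cebpb, and the basal and progenitor regulators were Snai2, Sox9, Sox10 and Bcl11a. Each of the 10 genes was taken from the probe sets that named it and no other gene in the array annotation, which gave exactly 1 probe set per gene, or 10 of the 34760 probe sets on the array. They are 10 of the 19937 gene symbols that had a probe set of their own. The rule for their probe sets used no measured value.

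The samples were 8 Affymetrix Mouse Gene 1.0 ST arrays, 4 parous and 4 virgin, each made from RNA of the fourth mammary glands pooled from 5 FVB/NHanHsd mice. Mice of the parous group were mated when 42 days old and went through pregnancy, 21 days of lactation and, by the sample labels, 28 days of involution, whereas the methods give a longer involution. The virgin controls were matched to them in age. Lymph nodes, adipocytes, red blood cells and part of the fibroblasts were removed but cells were not sorted, so other cell types stayed beside the epithelium, and no estrous stage is given for a pool. Values are log2 expression values after robust multi-array averaging (RMA), and array medians lay between 6.29 and 6.43. Among the 8 arrays, virgin replicates 2 and 4 stood apart by high levels of proliferation genes. Differences of single genes that rest on them are given with and without them, whereas the counts over gene lists use all 8 arrays. A gene passed the test at a fold change over 1.5, a Benjamini-Hochberg adjusted p under 0.05 in limma and a mean log2 value over 2.

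The mammary epithelium is a bilayer. Inner luminal cells include hormone-sensing cells and the progenitors of milk-secreting alveoli, and outer basal cells are contractile and hold stem cells. Lineage transcription factors bind regulatory DNA of their target genes and hold a cell in one of these states, and the comparison asks whether their expression differed after a completed pregnancy. Several of the 10 factors are known to act in more than 1 epithelial state, and the luminal and basal names used here mark the state each is best known for.

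Promoter sequences from RefSeq on the GRCm38.p6 assembly were matched by gene symbol for 5 of the 10 factors, Gata3, Cebpb, Bcl11a, Tfap2a and Runx1, with 7 promoter windows in all. The 250 bases before each transcription start were searched on both strands for short core motifs of the factors themselves. The windows of 3 genes are printed, 5′ to 3′ on the strand of the gene, with motif matches in capitals: that of Gata3 and the upstream of 2 windows of Runx1, which hold motifs of other factors described here, and that of Cebpb, the factor with the largest difference between the groups. The Gata3 window lies at chr2:9878601-9878850 on the minus strand, the Runx1 window at chr16:92826075-92826324 on the minus strand, and the Cebpb window at chr2:167688665-167688914 on the plus strand.
Gata3: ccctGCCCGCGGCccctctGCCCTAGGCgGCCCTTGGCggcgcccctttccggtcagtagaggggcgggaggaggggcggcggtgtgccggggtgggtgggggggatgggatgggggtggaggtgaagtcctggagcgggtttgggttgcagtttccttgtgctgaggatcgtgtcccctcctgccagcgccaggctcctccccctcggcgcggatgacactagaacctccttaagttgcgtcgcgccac
Runx1: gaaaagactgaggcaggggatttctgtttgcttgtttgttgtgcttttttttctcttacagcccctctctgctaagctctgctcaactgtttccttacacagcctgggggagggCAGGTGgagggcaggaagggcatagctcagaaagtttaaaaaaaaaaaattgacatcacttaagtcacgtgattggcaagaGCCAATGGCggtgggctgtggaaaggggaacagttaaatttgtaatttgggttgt
Cebpb: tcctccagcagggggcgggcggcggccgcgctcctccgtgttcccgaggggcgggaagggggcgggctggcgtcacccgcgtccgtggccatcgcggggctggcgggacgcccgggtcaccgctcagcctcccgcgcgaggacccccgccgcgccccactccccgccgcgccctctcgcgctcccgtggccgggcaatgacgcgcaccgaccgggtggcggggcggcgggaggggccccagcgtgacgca
The capitals in the Gata3 window are 3 matches to the AP-2 motif GCCNNNGGC, the motif of Tfap2a and Tfap2c, where N is any base. The Runx1 window holds 1 match to the same motif and 1 to the SNAI motif CAGGTG, the E-box type bound by Snai2, and the 2 motifs do not overlap. In all, 2 of the 7 windows held an AP-2 motif, as did 13.7% of the 32851 promoters of the table, and 1 held a SNAI motif, as did 17.2% of them. No window held a GATA motif (AGATAA or TGATAA, in 16.6% of all promoters), a SOX motif (ACAAAG or ACAATG, 25.2%), a RUNX motif (TGTGGT, 14%), a CEBP motif (TTGCNNAA, 9.56%) or a GRHL motif (AACCNGTT, 1.79%). A match describes the letters of the window and not binding.

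No luminal regulator and no basal or progenitor regulator passed the test. The counts were 0 of 10 higher and 0 of 10 lower in parous mice, where 138 of all 34760 probe sets, 0.397%, passed in either direction. All 10 differences were under 1.5-fold, and for 9 of the 10 genes the whole 95% confidence interval lay within 1.5-fold in either direction, Cebpb being the exception. At an unadjusted limma p under 0.05, a level called here the unadjusted p, stood 3 of the 10 genes, Cebpb and Sox10 higher and Sox9 lower in parous mice, against 11.4% of all probe sets. The same 3 genes were those whose 4 parous and 4 virgin values did not overlap, which was so for 7.60% of all probe sets. The median log2 difference was 0.05 over the luminal regulators and −0.08 over the basal and progenitor regulators, beside −0.00017 over all single-gene probe sets. The basal and progenitor median changed sign with the arrays used, to 0.01 without virgin replicate 4 and to 0.09 without virgin replicates 2 and 4. In unsorted suspensions, fewer cells of a type and less RNA per cell cannot be told apart, and this holds for every difference given here.

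**Figure D1:**
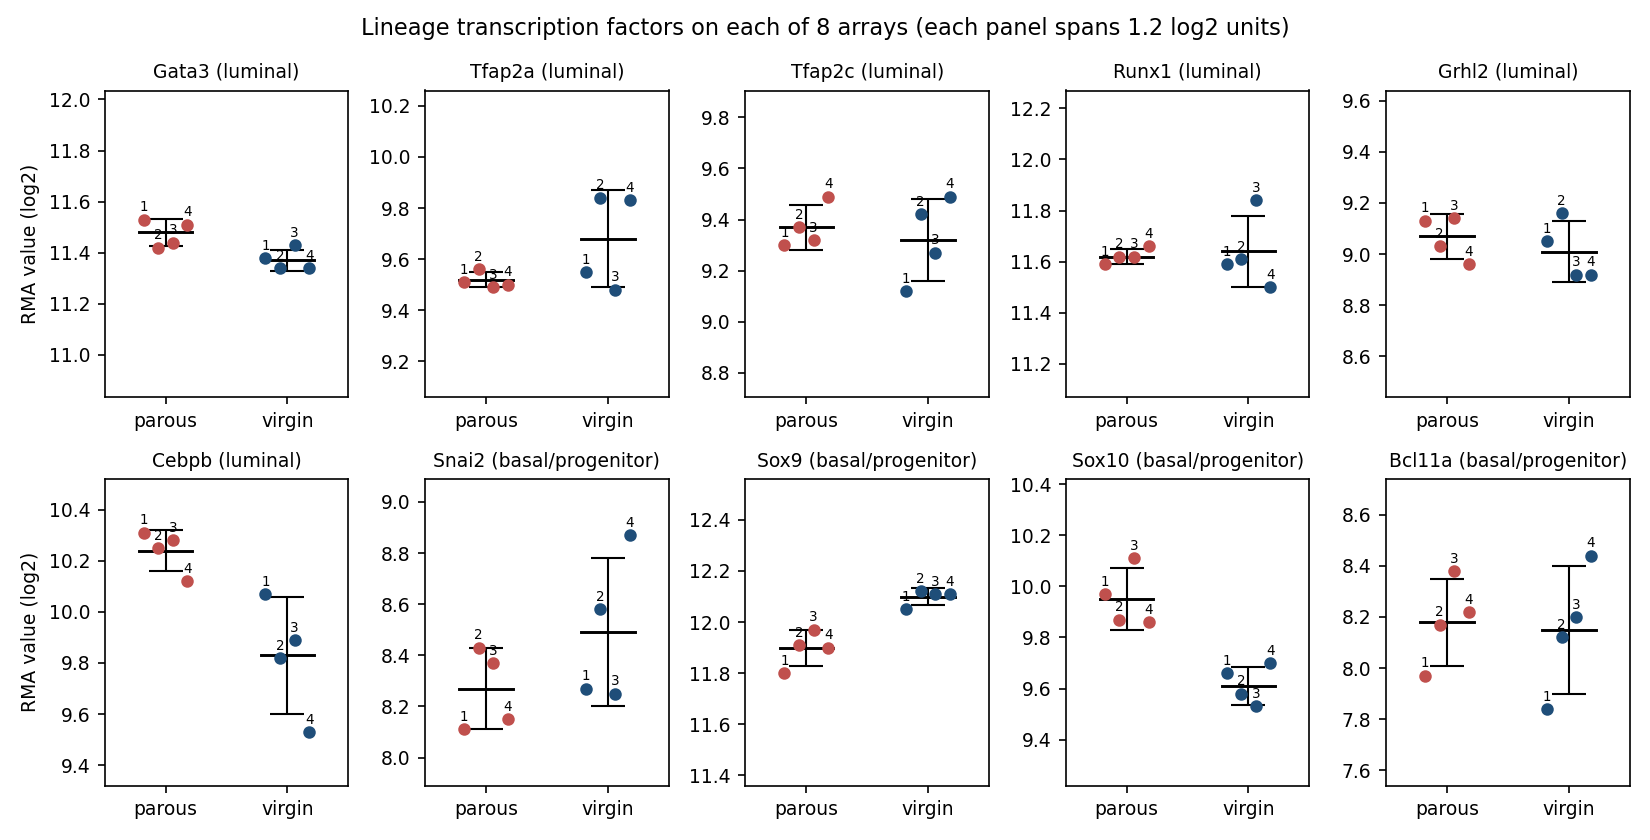
RMA log2 values of the 10 transcription factors on the 4 parous (red) and 4 virgin (blue) arrays, numbered by replicate. Horizontal lines and bars are the mean and SD of 4 arrays and each panel spans the same range, so that Cebpb, Sox9 and Sox10 can be seen as the only panels whose groups do not overlap.

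Gata3, a zinc finger factor required to form and maintain luminal cells, had log2 values of 11.53, 11.42, 11.44 and 11.51 on the parous arrays and of 11.38, 11.34, 11.43 and 11.34 on the virgin arrays. Parous replicate 2, at 11.42, lay just under virgin replicate 3, and the other parous arrays lay above all virgin arrays. The means were 11.48 ± 0.052 and 11.37 ± 0.041 (SD, n = 4 each), a log2 difference of 0.11 with a standard error of 0.065 and a 95% interval of −0.04 to 0.25 (adjusted p = 0.61). Gata3 had the smallest within-group SD of the 10 genes, 0.047 on the log2 scale, where the median over all single-gene probe sets was 0.15.

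Tfap2a and Tfap2c encode AP-2 factors of the luminal layer, and Tfap2c is known for keeping luminal differentiation. Tfap2a measured 9.51, 9.56, 9.49 and 9.50 on the parous arrays and 9.55, 9.84, 9.48 and 9.83 on the virgin arrays, in log2 values. The 4 parous values had an SD of 0.029, whereas virgin replicates 2 and 4 stood above the rest, so the difference of −0.16 (95% interval −0.39 to 0.07, adjusted p = 0.61) rested on those arrays and was 0.00 without them. Tfap2c measured 9.30, 9.37, 9.32 and 9.49 on the parous arrays and 9.12, 9.42, 9.27 and 9.49 on the virgin arrays. The groups overlapped over almost their whole range and differed by 0.05 (95% interval −0.18 to 0.27, adjusted p = 0.92). Without virgin replicates 2 and 4 the difference was 0.17 and the groups did not overlap, although fewer virgin arrays were then left to overlap with.

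Runx1, a Runt-domain factor of luminal and basal mammary cells that is also a factor of blood cells, had nearly equal values on all parous arrays. They were 11.59, 11.62, 11.62 and 11.66, and the virgin values were 11.59, 11.61, 11.84 and 11.50. The difference was −0.01 with a 95% interval of −0.21 to 0.18 (adjusted p = 0.98), and only virgin replicate 3 stood apart, by being high. Grhl2, a grainyhead-like factor that maintains epithelial junction genes, measured 9.13, 9.03, 9.14 and 8.96 on the parous arrays and 9.05, 9.16, 8.92 and 8.92 on the virgin arrays. Its groups overlapped and differed by 0.05 (95% interval −0.14 to 0.25, adjusted p = 0.89).

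Cebpb, a leucine zipper factor needed for ductal growth and for the differentiation of secretory cells, was the factor with the largest difference. Its log2 values were 10.31, 10.25, 10.28 and 10.12 on the parous arrays and 10.07, 9.82, 9.89 and 9.53 on the virgin arrays. The lowest parous array lay above the highest virgin array, and virgin replicate 4 was the lowest of all. The means of 10.24 ± 0.081 and 9.83 ± 0.23 differed by 0.41 (standard error 0.12), or 1.33-fold, with an interval of 1.11-fold to 1.60-fold. This did not pass (adjusted p = 0.23), and the exact 2-sided permutation test over the 8 arrays gave p = 0.029, unadjusted, the smallest value that 4 arrays against 4 can give. Groups without overlap always give this value, so for Cebpb, Sox9 and Sox10 it only restates the non-overlap. Over all single-gene probe sets, 91.9% had a smaller absolute difference than Cebpb. Without virgin replicates 2 and 4 the difference fell to 0.26 (adjusted p = 0.6).

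Snai2, the zinc finger factor Slug of basal cells, had log2 values of 8.11, 8.43, 8.37 and 8.15 on the parous arrays and of 8.27, 8.58, 8.25 and 8.87 on the virgin arrays. Virgin replicates 4 and 2 were the highest of the 8 arrays, and the other virgin values lay inside the parous range. The difference was −0.23 (95% interval −0.58 to 0.12, adjusted p = 0.64) and became 0.01 without these 2 virgin arrays. Snai2 also had the widest within-group SD of the 10 genes, 0.24. Bcl11a, a zinc finger factor of mammary stem and luminal progenitor cells, measured 7.97, 8.17, 8.38 and 8.22 on the parous arrays and 7.84, 8.12, 8.20 and 8.44 on the virgin arrays. Its values spread as widely within the groups as between them, with a difference of 0.04 (95% interval −0.28 to 0.35, adjusted p = 0.96) that was 0.17 without virgin replicates 2 and 4.

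The SOX factors Sox9 and Sox10 differed in opposite directions, neither past the test. Sox9, known in luminal progenitor and stem cells, measured 11.80, 11.91, 11.97 and 11.90 on the parous arrays and 12.05, 12.12, 12.11 and 12.11 on the virgin arrays, in log2 values. All parous arrays lay under all virgin arrays, although the gap was small, and the virgin values had an SD of only 0.034. The difference was −0.20 (standard error 0.067), or 1.15-fold lower in parous mice, with an adjusted p of 0.31 and an exact permutation p of 0.029. Sox10, known in mammary cells of stem and progenitor character as well as in Schwann cells and melanocytes of the neural crest, measured 9.97, 9.87, 10.11 and 9.86 on the parous arrays and 9.66, 9.58, 9.53 and 9.70 on the virgin arrays. Here every parous array lay above every virgin array. The difference was 0.34 (standard error 0.083), or 1.27-fold, with a 95% interval of 0.15 to 0.53, an adjusted p of 0.17, the lowest of the 10 genes, and an exact permutation p of 0.029. Without virgin replicates 2 and 4 the differences were −0.18 for Sox9 and 0.36 for Sox10.

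**Figure D2:**
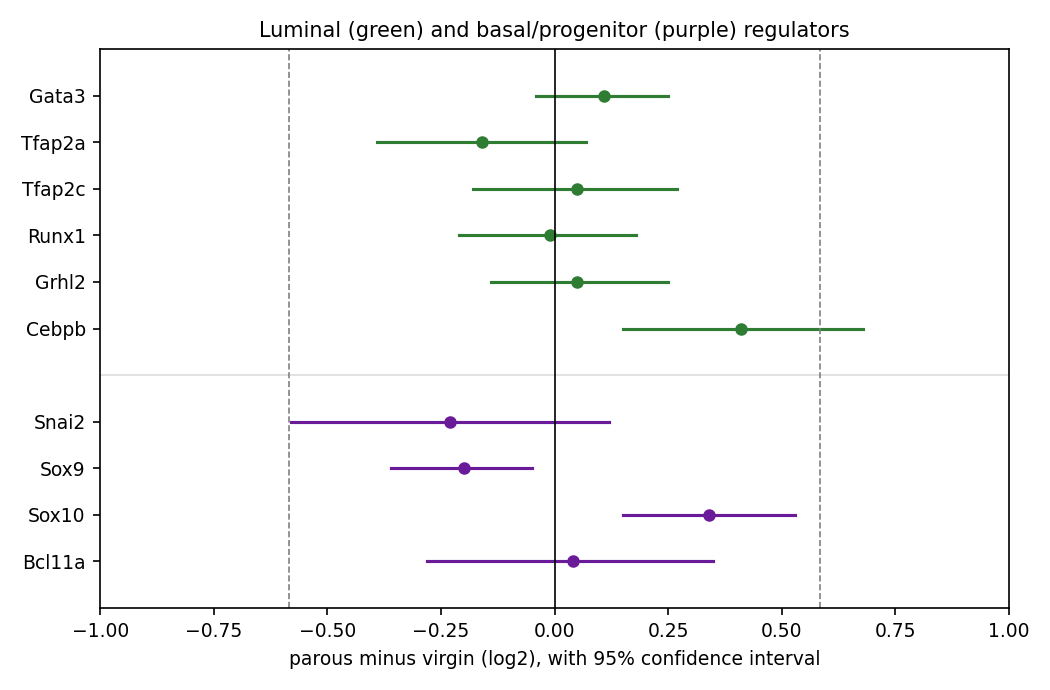
Parous minus virgin log2 difference of each factor (point) with its 95% confidence interval (line) from limma on 4 against 4 arrays. The solid vertical line is no difference and the dashed lines are 1.5-fold in either direction. The interval of Cebpb alone crosses a dashed line, and those of Cebpb, Sox9 and Sox10 do not cross 0.

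The 10 factors belong to families whose other members often bind the same DNA motifs, and 23 of these paralogs were measured. Of them 0 passed as higher and 1 as lower, with a median difference of 0.05. The paralog that passed was Tfap2b, another AP-2 factor. Its log2 values were 8.41, 8.33, 8.34 and 7.61 on the parous arrays and 9.58, 9.52, 9.84 and 9.48 on the virgin arrays. All parous arrays lay more than 1 log2 unit under all virgin arrays, and parous replicate 4 was the lowest. The difference of −1.44 (standard error 0.18), or 2.70-fold lower in parous mice, had an adjusted p of 0.017. Its 95% interval, −1.85 to −1.02, does not meet those of Tfap2a and Tfap2c, but the difference between the AP-2 genes was not tested. Leaving out parous replicate 2 or 3 or virgin replicate 1 or 2 took the adjusted p of Tfap2b to between 0.055 and 0.062 at differences of −1.49 to −1.44, and leaving out virgin replicates 2 and 4 together took it to 0.087 at −1.54.

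Among the other paralogs, 4 were higher by the unadjusted p. Sox8, of the same SOX group as Sox9 and Sox10, measured 8.26, 8.28, 8.17 and 8.30 on the parous arrays and 7.79, 7.97, 7.86 and 7.85 on the virgin arrays. The groups did not overlap, and the difference was 0.39 (adjusted p = 0.079). Cebpd, the paralog of Cebpb induced in involution and inflammation, measured 10.35, 10.33, 10.30 and 10.24 on the parous arrays and 10.06, 9.77, 10.12 and 9.54 on the virgin arrays. It too did not overlap between the groups, at a difference of 0.43 (adjusted p = 0.26), and like Cebpb it was lowest on virgin replicates 2 and 4, without which the difference was 0.21. The others were Gata6, which differed by 0.59 (adjusted p = 0.43) but by 0.12 without virgin replicates 2 and 4, and Snai1, which differed by 0.32 (adjusted p = 0.44) and by 0.20 without them. Grhl1 differed by −0.37 (adjusted p = 0.37), by −0.24 without virgin replicate 2 and by −0.23 without virgin replicates 2 and 4. The other paralogs included 9 whose mean lay under the median of the whole table, such as Sox2 and Gata4.

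**Figure D3:**
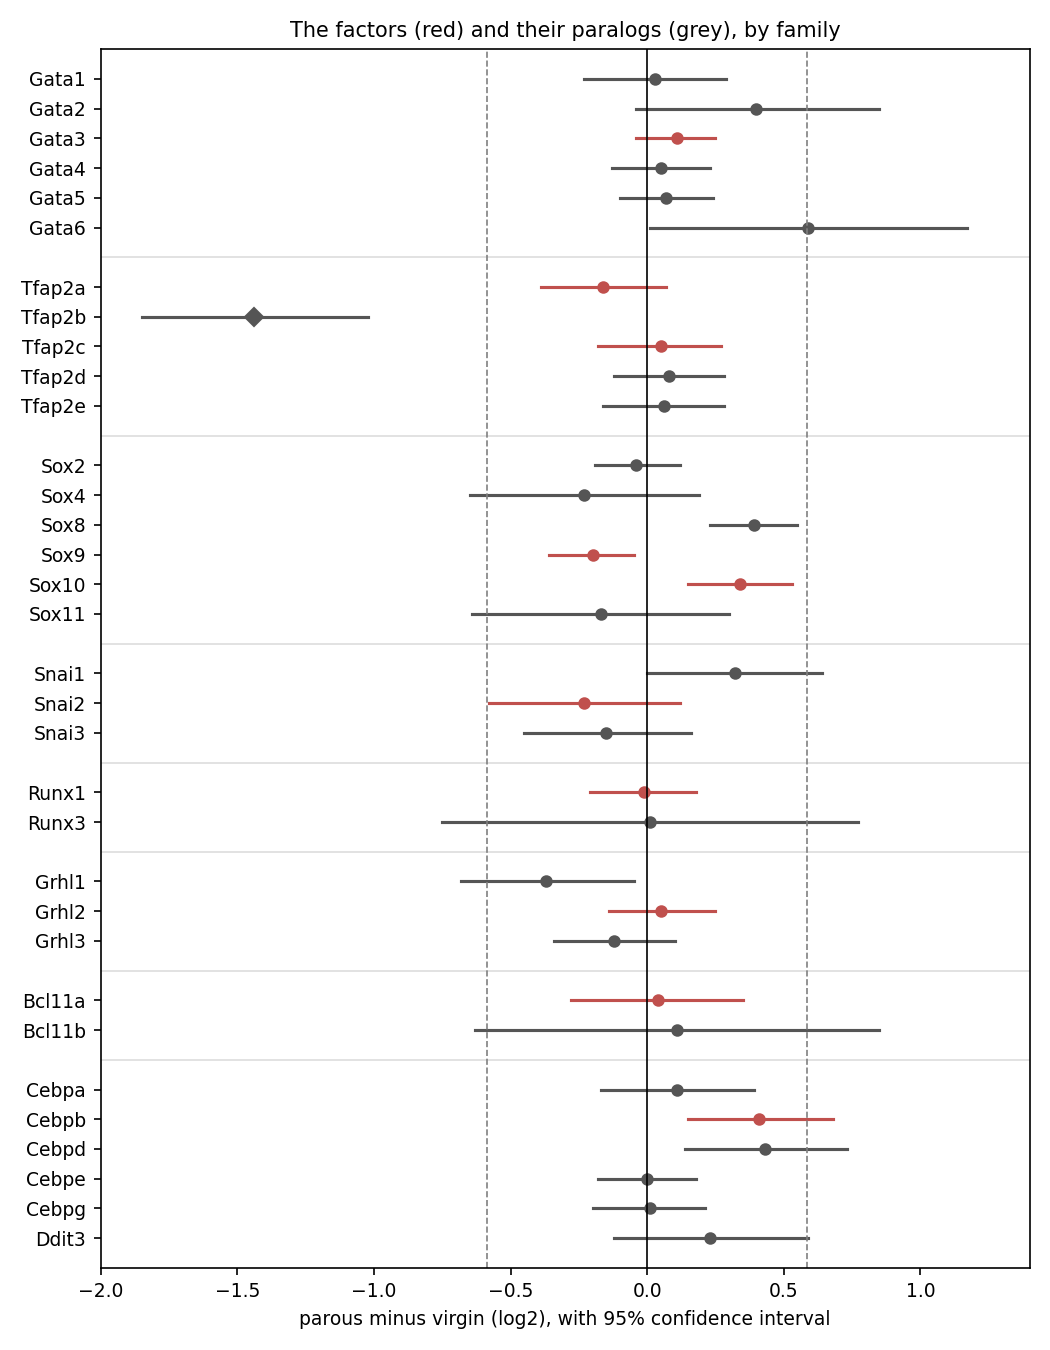
Parous minus virgin log2 difference with 95% confidence interval for the 10 factors (red) and their 23 measured paralogs (grey), by family. The diamond marks Tfap2b at −1.44, the only gene shown that passed the test, and the dashed lines are 1.5-fold in either direction.

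The cofactors that lineage factors act through did not pass either. Of 24 partners, 3 were higher and 3 lower at an unadjusted limma p under 0.05, with a median of 0.04. The largest differences were those of Zfpm2, a cofactor of GATA factors, at 0.55 (adjusted p = 0.28) and of the nuclear receptor Nr2f2 at 0.53 (adjusted p = 0.35), and without virgin replicates 2 and 4 they were 0.24 and 0.21. Chosen after their values were seen, Cbfb, the partner subunit that raises the DNA binding of Runx1, differed by −0.25 (adjusted p = 0.36) and by −0.16 without virgin replicates 2 and 4, and the histone demethylase gene Kdm1a, whose product works with SNAI factors, by −0.42 (adjusted p = 0.27). Kdm1a was highest on virgin replicates 4 and 2 and differed by −0.22 without them.

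Other regulators of the same lineages were read beside the 10. Of 23 further luminal regulators 0 passed, 5 were higher and 4 lower by the unadjusted p, and the median was 0.04. Foxa1, the pioneer factor of hormone-sensing cells, measured 9.46, 9.34, 9.48 and 8.65 on the parous arrays and 10.52, 10.52, 10.78 and 9.81 on the virgin arrays. No parous array reached the lowest virgin array, and the difference was −1.18 (standard error 0.25, adjusted p = 0.12). Foxa1 passed when arrays were weighted by quality (−1.22, adjusted p = 0.043), and also with the replicate number as a block in the fit. Cited1, a coactivator of estrogen receptor in the same cells, had a difference of −1.16 (adjusted p = 0.17), also without overlap. Elf5, the alveolar progenitor factor, chosen after its values were seen, measured 10.94, 11.13, 11.12 and 10.94 on the parous arrays and 10.64, 10.88, 10.56 and 10.66 on the virgin arrays. It was thus higher on every parous array, at a difference of 0.35 (adjusted p = 0.21).

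Of 23 further basal and mesenchymal-type regulators, 0 passed as higher and 1, Srf, as lower, with 6 higher and 4 lower by the unadjusted p and a median of 0.16. Srf, the factor that drives contractile genes with its coactivators, measured 10.25, 10.30, 10.01 and 9.92 on the parous arrays and 10.80, 11.01, 10.75 and 10.78 on the virgin arrays. The groups did not overlap, and the difference was −0.71 (standard error 0.11, adjusted p = 0.037). Leaving out any single array took its adjusted p to between 0.061 and 0.14, leaving out virgin replicates 2 and 4 together to 0.19, centring each array on its median to 0.059 and an unmoderated test to 0.13. Trp63, the master factor of basal cells, chosen after its values were seen, differed by −0.60 (adjusted p = 0.37) and by −0.25 without virgin replicates 2 and 4, which together with virgin replicate 3 were its highest arrays.

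Genes that the factors are known to control and markers of the epithelial states were read next. Krt8, Krt18 and Epcam of luminal cells and Krt5, Krt14 and Trp63 of basal cells lay above the array median on all 8 arrays, so transcripts of both layers were detected. Of 16 junction and differentiation genes bound by GRHL2 and AP-2, 0 passed, but 8 were lower and 0 higher by the unadjusted p, with a median of −0.23. The tight junction genes Marveld2 and Cldn7 had the largest differences, −0.68 (adjusted p = 0.19) and −0.60 (adjusted p = 0.22). Without virgin replicates 2 and 4 these were −0.54 and −0.43, both under 1.5-fold, and the count of the list was not made without them. Grhl2 itself differed by 0.05.

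Among hormone-sensing luminal markers 1 of 10 passed, Wnt4, as lower. This ligand, secreted by hormone-sensing cells, measured 7.68, 7.65, 7.73 and 7.87 on the parous arrays and 8.46, 8.69, 8.56 and 8.52 on the virgin arrays. The groups lay far apart relative to their spread, with a difference of −0.82 (standard error 0.083, adjusted p = 0.007), and a second probe set of Wnt4 differed by −0.95 (adjusted p = 0.029). With an unmoderated test the adjusted p of the first was 0.052, and with the replicate number as a block in the fit it did not pass either. The median of the list was −0.62, and 6 of its genes were lower and 0 higher by the unadjusted p. Of 11 pan-luminal markers, 0 passed, 6 were lower and 0 higher at that level, with a median of −0.37. The largest differences were those of Krt7 at −0.88 (adjusted p = 0.073) and Prom1 at −0.65 (adjusted p = 0.55). Prom1 overlapped between the groups and was not among the 6. Krt19, named after its values were seen, was among the 6, at −0.47 (adjusted p = 0.044), and missed only the fold criterion. Its adjusted p was not followed with arrays left out. Krt7 passed with array weights (adjusted p = 0.027) and when fewer probe sets were tested, those above the median (0.038) or with a single gene (0.042). Prom1 was −0.39 without parous replicate 4 and −1.14 without virgin replicates 2 and 4. Of 12 luminal progenitor markers, 0 passed, and 8 were higher and 0 lower by the unadjusted p, with a median of 0.30. In all, 9 of the 12 lay above 0. Kit and Itga2, named after their values were seen, did not, at −0.12 (adjusted p = 0.77) and −0.20 (adjusted p = 0.55). The study counts Ltf among differentiation genes, so the list does not mark progenitors alone. The largest differences of the list were Ltf at 0.99 (adjusted p = 0.47) and Rspo1 at −0.82 (adjusted p = 0.70). Ltf was lowest by far on virgin replicate 4. Without virgin replicates 2 and 4 the difference was 0.29 for Ltf and 0.46 for Rspo1.

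Of 18 basal and myoepithelial markers, 1 passed as lower, Krt17, and 7 were lower and 1 higher by the unadjusted p, with a median of −0.21. Krt17, a basal keratin gene, measured 10.57, 10.66, 10.64 and 10.37 on the parous arrays and 11.35, 11.71, 11.81 and 12.07 on the virgin arrays. The lowest virgin array lay well above the highest parous array, at a difference of −1.18 (standard error 0.15, adjusted p = 0.017). Leaving out any 1 of the 4 parous arrays or virgin replicate 2 took its adjusted p to between 0.064 and 0.073, and leaving out virgin replicates 2 and 4 together took it to 0.082 at a difference of −1.02. Some genes, such as Trp63, Elf5, Foxa1 and Cited1, stand in more than 1 list, so these counts are not independent.

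The arrays differed in ways that ran beside the factors. Each array was given a score for each list: the genes' log2 values were centred over the 8 arrays and then averaged. The proliferation score was 1.1 on virgin replicate 2 and 1.6 on virgin replicate 4, between −0.23 and −0.21 on the other virgin arrays, and between −0.80 and −0.43 on the parous arrays. Of the 24 proliferation genes 0 passed, and 20 were lower and 0 higher by the unadjusted p. This count was not made without virgin replicates 2 and 4. These 2 virgin arrays were also the highest for Tfap2a and Snai2, and they held the lowest and second lowest values of Cebpb. The part of dividing cells in the values of these 3 factors was not tested. The score of the luminal regulators lay between 0.029 and 0.05 on the parous arrays and between −0.077 and 0.021 on the virgin arrays, without overlap. Of its 6 genes Cebpb alone did not overlap between the groups, and no score was made without Cebpb. The split is thus not a shift seen in each of these genes. The score of the basal and progenitor regulators overlapped, at −0.12 to 0.13 and −0.13 to 0.20.

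**Figure D4:**
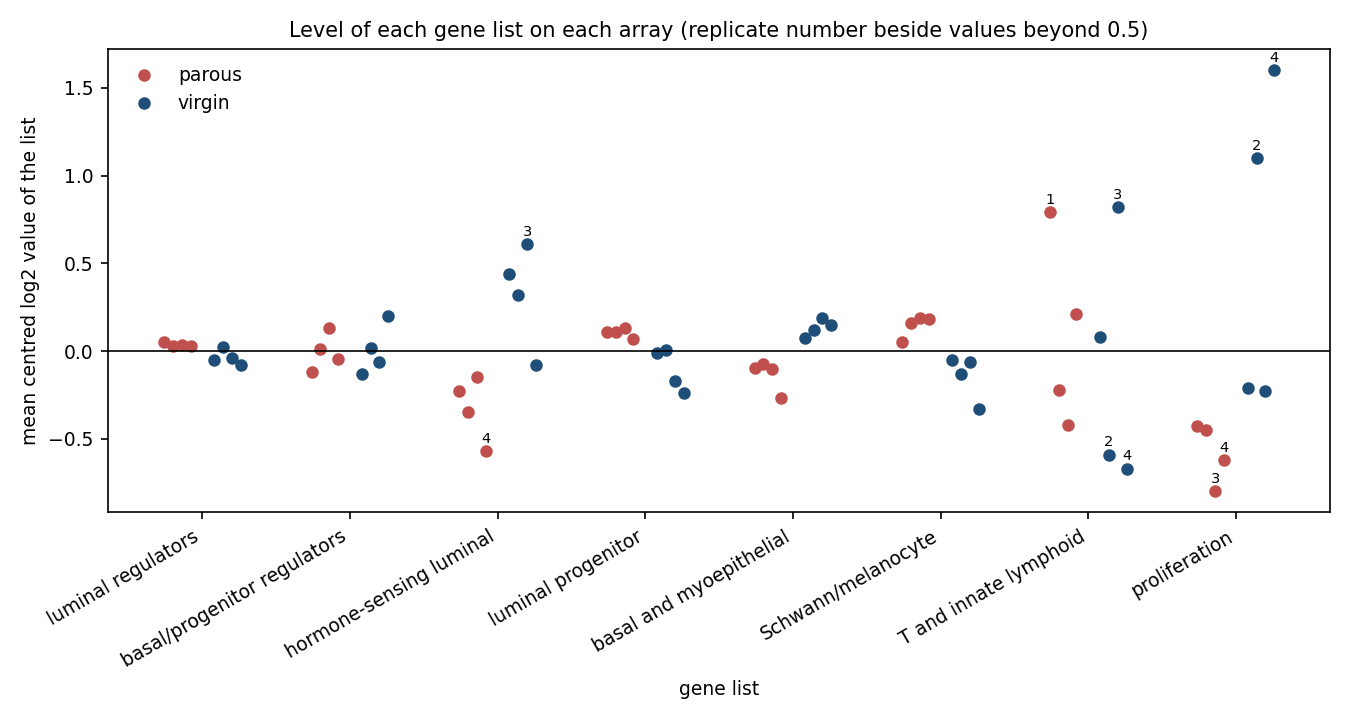
Score of 8 gene lists on each array, the mean over the list of log2 values centred on the mean of 8 arrays. The luminal regulators lie between 0.029 and 0.05 on parous and between −0.077 and 0.021 on virgin arrays. Of their 6 genes Cebpb alone did not overlap between the groups. The basal and progenitor regulators lie between −0.13 and 0.20 on all arrays. The proliferation score of virgin replicates 2 and 4 reaches 1.1 and 1.6, and the T cell score of parous replicate 1 and virgin replicate 3 reaches 0.79 and 0.82.

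Gata3 and Runx1 are also factors of T cells and other blood cells. The score of 13 T and innate lymphoid cell markers was 0.79 on parous replicate 1 and 0.82 on virgin replicate 3, and between −0.67 and 0.21 on the other arrays. Gata3 was highest within its group on just these arrays, at 11.53 and 11.43. Runx1 had its highest virgin value on virgin replicate 3, at 11.84, but its lowest parous value on parous replicate 1, at 11.59. The score of B and plasma cell markers was also highest on these 2 arrays, at 0.81 and 0.9, so they did not stand apart by T cell markers alone. Of these T cell markers, 2 were higher and 0 lower by the unadjusted p and 0 passed. Their part in the values of Gata3 and Runx1 was not tested.

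For Sox10, markers of Schwann cells and melanocytes were read beside it. Of 12 measured, 0 passed, and 4 were higher and 0 lower by the unadjusted p. Their score lay between 0.05 and 0.19 on the parous arrays and between −0.33 and −0.05 on the virgin arrays, so that it was higher on every parous array, as Sox10 was. The Schwann cell cadherin Cdh19 differed by 0.99 (adjusted p = 0.13) while lying under the array median on all arrays, the melanocyte gene Mlana by 0.77 (adjusted p = 0.057), and Mitf, the melanocyte factor that other cells express too, by 0.76 (adjusted p = 0.091). Mlana passed without parous replicate 2 (adjusted p = 0.047) and when probe sets with a single gene were tested alone (0.034), and Mitf when those above the median were tested alone (0.047). The defining markers S100b, Gfap, Foxd3, Dct, Tyr and Pmel were under the array median on all 8 arrays. The part of such cells in the difference of Sox10 was not tested.

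Stromal and immune lists were counted in the same way. Of 12 fibroblast markers, 5 were higher and 0 lower by the unadjusted p and 0 passed, with scores of −0.14 to 0.59 on parous and −0.49 to 0.13 on virgin arrays. Of 13 B and plasma cell markers, 3 passed as higher. For macrophage and dendritic cell (15 genes), granulocyte and mast cell (10), endothelial and pericyte (12), adipocyte (9) and immediate early genes (14), 0 passed, and the medians lay between 0.13 and 0.26. Their part in the values of the 10 factors was not tested.

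The genes most like Gata3 and Snai2 over the 8 arrays were found among 13053 single-gene probe sets with a mean above the median of the table, as a description without a test, since arrays of both groups enter it. For Gata3 these were Fnbp1 (Pearson r = 0.957), Fam117a (r = 0.952) and Inpp4a (r = 0.951), which differed between the groups by 0.21, 0.23 and 0.17 on the log2 scale. For Snai2 they were Cop1 (r = 0.985), Zranb1 (r = 0.979) and Cspp1 (r = 0.976), with differences of −0.18, −0.16 and −0.22. Each of the latter 3 genes was highest on virgin replicate 4 and second highest on virgin replicate 2, as Snai2 was.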

How the data were processed

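RNA from total mammary cell suspensions was measured on 8 single-colour arrays. The deposited log2 values came from the authors' use of rma() in affy (the methods name the R/Bioconductor release, with the affy version not given in the sources used here), which corrects the background, quantile-normalizes the arrays and summarizes probes per probe set, so changes shared by all genes are removed. Of 34760 probe sets, 21640 named 1 gene, 1321 several and 11799 none here, and 21553 symbols were taken through gene identifiers. From these values, parous and virgin arrays were compared in R 4.3.3 with limma 3.58.1 (lmFit, eBayes, no covariate, 2-sided), adjusted over all 34760 probe sets, and single genes by exact permutation tests. Where a gene had several probe sets, the one with the highest mean stood for it. The number of arrays limits the precision. The procedure was tested on simulated data.

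The factors and gene lists were chosen with earlier results of these data known, and the lists by hand. Genes named were the 10 factors, in each list up to 4 that passed or, where none did, up to 2 with the largest difference, and for Gata3 and Snai2 the 3 most correlated genes. Outside this rule, and with their values seen, the paralogs Sox8, Cebpd, Gata6, Snai1 and Grhl1 and the genes Cbfb, Kdm1a, Elf5, Trp63, Mitf, Kit, Itga2 and Krt19 were named. Lists of non-epithelial cells and proliferation are given by counts and scores, apart from genes that bear on Sox10. Alternatives covered the arrays used, pairing by replicate number, normalization, variance estimation, filters, criteria and the probe set of a gene. Pools were counted as replicates.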

Additional observations from a re-analysis of the deposited data

Results flagged for a closer look

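One of the 20 sets of 4 values (10 factors in 2 groups) held an unusual array: Sox9 on virgin replicate 1, at a log2 value of 12.05 beside 12.11 to 12.12 on the other virgin arrays. Its distance from them was large only because those 3 arrays were so close, and chance marks about 1 in 20 such sets. The value lay nearer to the parous arrays than the other virgin values did.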

How the results depend on the processing

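The count of factors that passed was 0 higher and 0 lower under all alternatives run, and the lowest adjusted p of any factor under any of them was 0.093. Of 200 values of the 10 factors under 20 alternatives, 194 kept their direction and their side of the criteria and 6 changed sign. Some sign changes were in small differences: leaving out 1 array gave −0.07 to 0.13 for Bcl11a, −0.02 to 0.10 for Tfap2c and −0.06 to 0.05 for Runx1. The larger differences of Tfap2a, −0.16, and Snai2, −0.23, became 0.00 and 0.01 when virgin replicates 2 and 4 were left out. Without those arrays the basal and progenitor median was 0.09, Rspo1 was 0.46, Cop1 0.01, Zranb1 0.07 and Cspp1 0.04; the cause was not tested. The factors at an unadjusted p under 0.05, a count added after the values were seen, numbered 3 to 4 with any 1 array left out and 2 without both virgin arrays. The background moved more: 138 probe sets passed, 42 to 179 with 1 array left out, 49 with the replicate number as a block, 11 with an unmoderated test of equal variances and 1030 at unadjusted p-values with the fold criterion. A legend of the study describes experiments that each held virgin and parous mice, but no source used here ties the replicate numbers to them. Deviations of same-numbered arrays from their group means correlated at −0.057 to 0.31, over 0.1 in 3 of 4 pairs, and parous replicates 1 and 3 correlated more with another virgin number, so the numbers were not taken to pair the arrays. The block took Tfap2b, Wnt4, Srf and Krt17 past the threshold, to adjusted p-values of 0.051, 0.058, 0.066 and 0.098, and brought Foxa1 and Krt7 under it, at 0.025 and 0.04. The number of arrays and signal over background limit the precision.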
